A study of Homo sapiens with 20 samples.

Results

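Loss of ADAR was read out as RNA in 4 lung cancer cell lines, in 3 that the study treats as dependent on ADAR1 without any treatment and in 1 that it made vulnerable with interferon-β (IFN-β). Of the 20 libraries of the series, 16 entered the comparison: 12 from the dependent lines and 4 from A549 under IFN-β. The dependent lines were HCC366 (lung adenosquamous carcinoma), NCI-H1650 (lung adenocarcinoma) and NCI-H196 (variant small cell lung cancer). They were left untreated, and RNA was taken 5 days after transduction with a lentivirus that carried Cas9 together with an sgRNA against GFP, as control, or against ADAR. A549 is a lung adenocarcinoma line that tolerates ADAR loss. Its GFP control and ADAR-deficient cells carried the same kind of vector and received 10 ng/mL IFN-β for 24 h; the time since their transduction is not given in the sources used here. Another 4 A549 libraries received vehicle (sterile water) and are given only beside the A549 values. Each of the 8 conditions compared had 2 libraries, sg1 and sg2, made with 2 different sgRNAs, so p-values measure only the spread between these samples. The mean ADAR-minus-GFP effect over the 3 dependent lines (below, the dependent-line effect) was set against the ADAR-minus-GFP effect in A549 under IFN-β (the A549 effect). These 2 effects share no library. Cell line, IFN-β and time since transduction all change between them and cannot be told apart.

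ADAR1 deaminates adenosine to inosine in double-stranded RNA, which keeps RNA made by the cell itself from being taken for viral RNA. Without it, double-stranded RNA can bind MDA5 (IFIH1), which signals through MAVS to interferon genes and NF-kB, and PKR (EIF2AK2), a kinase that phosphorylates eIF2α. Phosphorylated eIF2α lowers general translation and raises translation of ATF4, the transcription factor of the integrated stress response. Type I interferons such as IFN-β induce ADAR1 p150, PKR and MDA5 themselves. Immediate-early genes are transcription factors and feedback inhibitors that respond to stress and growth factor signals before new protein is made.

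ADAR, at chr1:154554171-154600489 (hg19), was read first as a check of the labels. The normalised count (CPM, scaled between libraries by TMM) was 771 and 1085 in the GFP libraries of HCC366 and 553 and 465 in its ADAR libraries. The NCI-H1650 values were 583 and 703 with GFP sgRNAs and 278 and 247 with ADAR sgRNAs, and those of NCI-H196 were 611 and 655 against 483 and 445. A549 under IFN-β stood at 1527 and 1515 with GFP sgRNAs and at 846 and 1090 with ADAR sgRNAs. In all 4 lines the ADAR libraries lay below the controls. ADAR RNA fell by 0.87 ± 0.12 (SE) on the log2 scale in the dependent-line effect (adjusted p = 2.5e-05), and the A549 effect was −0.65 ± 0.20 (adjusted p = 0.065). EIF2AK2, which encodes PKR, passed the test in neither effect, at −0.35 ± 0.15 (adjusted p = 0.123) and −0.06 ± 0.24 (adjusted p = 0.96). An sgRNA cuts the gene and need not remove its RNA, so these values say nothing of the protein.

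Between 62679 and 19520189 reads fell on genes per library. The lowest was NCI-H196 GFP sg2, in which 1 read is worth 11.1 CPM, so that lowly expressed genes often had no read there. Wherever NCI-H196 GFP sg1 is left out below, this shallow library is the only control of NCI-H196, and the values of that run rest on it. HCC366 ADAR sg2 had 85.6% of its alignments at more than 1 place, against 22.5% to 59.1% in the other libraries compared. A trend on transcript GC content and length took up 22.4% of the variance of its log2 ratios, against 0.144% to 4.07% elsewhere. The epithelial keratins KRT8 and KRT18 were at 844 to 3012 CPM in A549, HCC366 and NCI-H1650 and at 43.4 and 22 CPM in NCI-H196, where COL1A1 stood at 2317 CPM, over the libraries of a line. Other epithelial markers divided the lines differently. EPCAM, CDH1 and KRT19 were at 99.4, 738 and 471 CPM in NCI-H1650 and at 0.201, 47.6 and 0.76 CPM in A549. In HCC366 they were at 1.43, 7.4 and 0 CPM and in NCI-H196 at 0.255, 0.255 and 0 CPM. VIM and CDH2 were at 811 and 137.5 CPM in A549 and at 2256 and 145 CPM in NCI-H196. They were at 6.235 and 0.65 CPM in HCC366 and at 128.6 and 3.27 CPM in NCI-H1650. The neuroendocrine factors NEUROD1 and INSM1 had 0 and 1 reads over all 16 libraries, so these markers of small cell lung cancer were at or near 0 in NCI-H196, which is labelled a variant form. Results that move without 1 of these libraries or lines are given with those values, and the part of depth, GC content or cell identity in them was not tested.

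Of 17669 genes tested, 1521 rose in the dependent-line effect (8.61%) and 1081 fell (6.12%), at an adjusted p under 0.05. In the A549 effect 609 rose (3.45%) and 223 fell (1.26%). Called in both with the same sign were 296 genes, of which 290 rose and 6 fell. The shared rises were 19.1% of the genes that rose in the dependent lines and 47.6% of those that rose in A549, and the shared falls were 0.555% and 2.69% of the falls. Direction was compared beyond the calls. Of the genes that rose in A549, 86.0% had a dependent-line effect above 0, against 50.9% of all genes, while of those that fell 46.2% had one below 0. In the other direction, 69.95% of the genes that rose in the dependent lines had an A549 effect above 0 under IFN-β, against 43.4% of all genes, and 49.2% had one above 0 under vehicle. Leaving out 1 library moved the totals widely, from 399 called in the dependent-line effect without NCI-H196 GFP sg1 to 6189 without HCC366 ADAR sg1, and from 111 in the A549 effect without A549 ADAR sg2 to 3218 without HCC366 ADAR sg2. In each fit all libraries share 1 estimate of the spread. The scarcity of shared falls depended on the processing. They numbered 52 of 461 shared genes without the HCC366 libraries, 158 of 738 when each library's trend with GC content and length was removed, 211 of 813 without HCC366 ADAR sg1 and 157 of 677 without HCC366 ADAR sg2. A replicate block left 0 of 187.

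**Figure D1:**
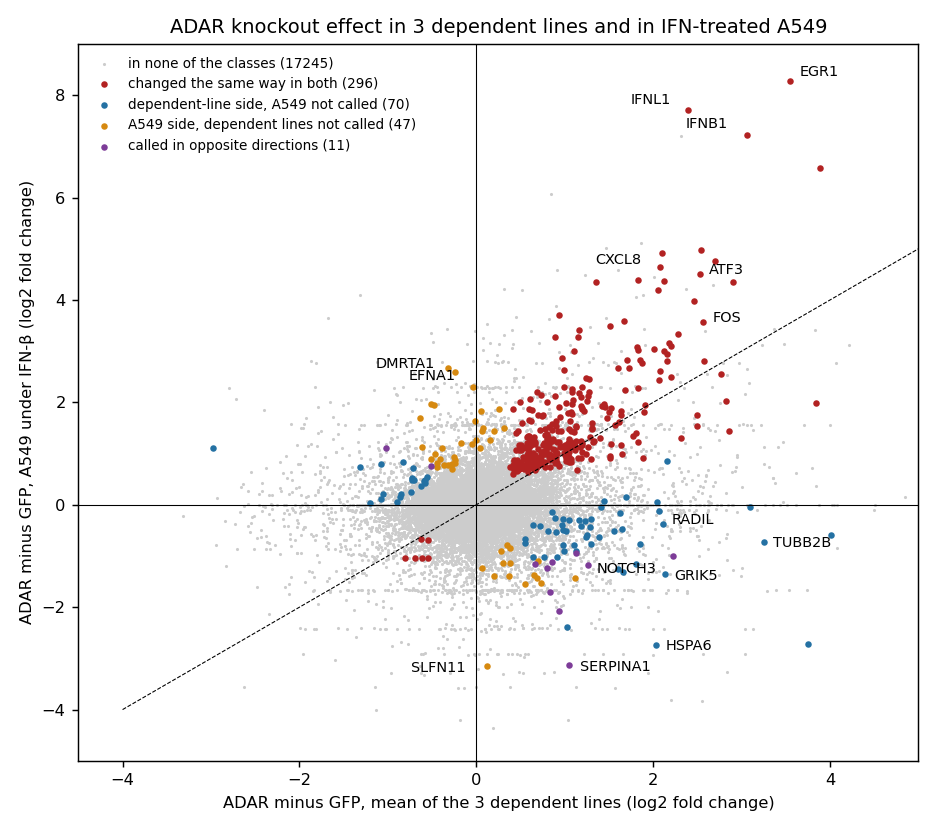
Each point is 1 of the genes tested, with the dependent-line effect on the x axis and the A549 effect under IFN-β on the y axis, both as log2 fold change of ADAR over GFP; colours give the 4 classes, the dashed line marks equal effects, and 1 gene lies outside the axes. The 296 genes called in both with the same sign lie almost all in the upper right quadrant, with EGR1 farthest out, and most of them lie above the dashed line.

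The shared rises were also looked at library by library, in the libraries that chose them. Of the 290, 209 (72.1%) had both ADAR libraries above both GFP libraries in all 4 lines, a pattern that 3.2% of all genes tested showed. A line's own effect was above 0 for 282 of the 290 in NCI-H196, 287 in HCC366 and 288 in NCI-H1650. Their median log2 fold change was 0.65 in NCI-H196, 0.72 in NCI-H1650, 1.25 in A549 under IFN-β and 1.35 in HCC366. In A549 under vehicle it was 0.05; there 0 of the 290 passed edgeR's test, and 11 rose and 3 fell at an unadjusted p under 0.05, where 180 rose and 389 fell among all 17669 genes. Over all 19523 genes of the fit that included vehicle, 5 passed (0.0256%). The rule that chose these genes used the 16 libraries compared, so the shares and medians from those libraries are a description and support nothing. The vehicle libraries were not used by it.

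The promoters of 4 shared rises are shown because each stands for a group of genes described next: EGR1 for the immediate-early genes, ATF3 for the integrated stress response, CXCL8 for NF-kB and IFNB1 for the interferons. Each runs 5′ to 3′ along the gene from 250 bases before the annotated start to 50 bases after it, from RefSeq on GRCh38.p14: EGR1 at chr5:138465229-138465528 (plus strand), ATF3 at chr1:212565157-212565456 (plus), CXCL8 at chr4:73740319-73740618 (plus) and IFNB1 at chr9:21077893-21078192 (minus). Capitals mark motif matches. In EGR1 they are 2 matches of the SRF CArG box and 2 of the NF-kB motif (GGGANNNNCC). In ATF3 the match is to the letters of the CARE (TGATGNAA), an element bound by ATF4 with C/EBP proteins. In CXCL8 the matches are to AP-1 (TGANTCA) and NF-kB, and in IFNB1 to NF-kB.
EGR1: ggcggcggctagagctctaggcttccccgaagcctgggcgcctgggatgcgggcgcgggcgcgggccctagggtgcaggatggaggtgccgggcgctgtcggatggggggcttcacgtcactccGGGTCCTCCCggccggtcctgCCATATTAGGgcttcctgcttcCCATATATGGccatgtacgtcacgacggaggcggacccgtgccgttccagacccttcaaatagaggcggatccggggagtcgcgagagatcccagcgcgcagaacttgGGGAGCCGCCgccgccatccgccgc
ATF3: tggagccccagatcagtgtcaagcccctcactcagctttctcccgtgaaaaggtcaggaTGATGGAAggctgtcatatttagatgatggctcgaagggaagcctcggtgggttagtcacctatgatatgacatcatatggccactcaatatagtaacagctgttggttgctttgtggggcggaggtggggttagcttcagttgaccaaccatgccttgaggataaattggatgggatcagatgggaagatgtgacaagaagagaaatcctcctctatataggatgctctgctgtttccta
CXCL8: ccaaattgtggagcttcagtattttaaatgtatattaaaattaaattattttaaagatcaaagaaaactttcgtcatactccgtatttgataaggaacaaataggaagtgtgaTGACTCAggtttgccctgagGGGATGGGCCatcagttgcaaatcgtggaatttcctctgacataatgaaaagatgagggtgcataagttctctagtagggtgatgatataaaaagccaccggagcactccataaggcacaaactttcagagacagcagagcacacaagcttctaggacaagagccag
IFNB1: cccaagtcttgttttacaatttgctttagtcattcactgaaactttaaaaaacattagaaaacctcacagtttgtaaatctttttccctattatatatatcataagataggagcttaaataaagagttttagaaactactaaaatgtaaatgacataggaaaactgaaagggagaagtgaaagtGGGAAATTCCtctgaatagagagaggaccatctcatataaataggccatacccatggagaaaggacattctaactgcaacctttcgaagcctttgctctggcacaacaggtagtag
The CXCL8 window holds an AP-1 match at −137 from the start and a match of the NF-kB letters at −117. The IFNB1 window has a match of the NF-kB letters at −66. Of all windows 30.7% held such an NF-kB match, and sites that depart from the letters searched are not marked. Each window covers the annotated start used here, and any other start of a gene was not searched. A match is a description of letters, not of binding.

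Immediate-early genes rose in both effects. Of 35 tested, 31 rose in the dependent-line effect, 27 rose in the A549 effect and none fell in either, and 25 were shared. Among all 17669 genes 8.61% rose in the dependent lines, 3.45% rose in A549, and 290 were shared rises. The median log2 fold change was 1.07 in the dependent lines and 1.29 in A549, where the medians of all genes tested were 0.01 and −0.04. EGR1 (chr5:137801168-137804992, hg19), a zinc finger transcription factor, was at 2.23 and 3.95 CPM in the GFP libraries of HCC366 and at 91.5 and 228 CPM in its ADAR libraries. In NCI-H1650 it was at 35.0 and 28.5 CPM against 95.6 and 130 CPM, and in NCI-H196 at 11.2 and 22.2 against 108 and 115. A549 under IFN-β went from 2.00 and 1.26 CPM to 378 and 607 CPM. All 8 ADAR libraries lay above all 8 GFP libraries, and the highest level with the lowest control was that of A549. EGR1 rose by 3.55 ± 0.23 in the dependent-line effect (adjusted p = 1.6e-10) and by 8.27 ± 0.41 in A549 (adjusted p = 2.31e-13), on the log2 scale.

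FOS (chr14:75745529-75748933, hg19), a partner of JUN in AP-1, rose by 2.57 ± 0.22 and 3.56 ± 0.31. Its GFP libraries lay between 0 and 14.3 CPM and its ADAR libraries between 20.3 and 49.1 CPM, with no overlap across the 4 lines. The value of 0 is NCI-H196 GFP sg2, the shallowest library. JUN rose by 1.63 ± 0.17 and 1.84 ± 0.28, and FOSB, another FOS family member, by 2.10 ± 0.21 and 4.93 ± 0.36. The phosphatase gene DUSP8, whose product inactivates stress-activated kinases, rose by 2.46 and 3.99. EGR4 had no read in either A549 GFP library and 9 and 41 reads in the ADAR libraries, at least 15-fold higher when 3 reads are taken as the floor over the group. ARC, DUSP4, EGR3, IER5, MYC and TRIB1 passed the test only in the dependent-line effect and CCN1 and CCN2 only in A549; of these 8, the difference of the effects was called for CCN2. The counts held without the HCC366 libraries (29 rose in the dependent lines, 28 in A549, 26 shared) and were lower without NCI-H196 GFP sg1 (20, 27 and 18) and by DESeq2 (29, 19 and 17).

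**Figure D2:**
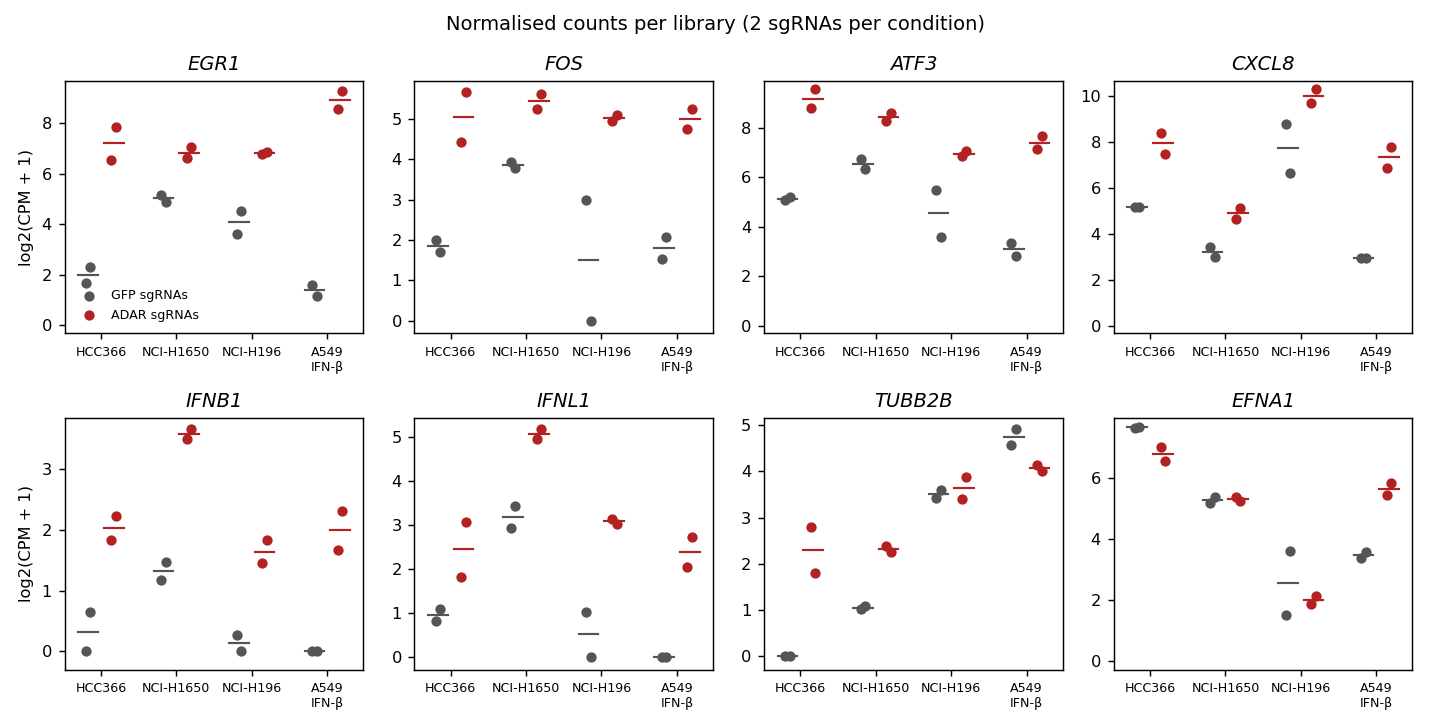
Normalised counts as log2(CPM + 1) for 8 genes, with 1 point per library, grey for GFP sgRNAs and red for ADAR sgRNAs, and a bar at the mean of the 2 sgRNAs in each line. EGR1, FOS, ATF3, CXCL8, IFNB1 and IFNL1 are higher in the ADAR libraries of every line, TUBB2B is higher in HCC366 and NCI-H1650 and lower in A549, and EFNA1 is higher only in A549.

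ATF4 target genes were also among the shared rises. All 7 that the study examined rose in the dependent-line effect and 5 of them rose in A549: ATF3, DDIT3, GADD45A, GADD45B and PPP1R15A. These genes were chosen by the study on these samples, so their direction is not independent evidence. ATF3 (chr1:212738676-212794119, hg19), a stress-induced transcription factor, read 32.7 and 35.6 CPM in the GFP libraries of HCC366 and 441 and 754 CPM in its ADAR libraries. It read 107 and 79.3 against 311 and 383 CPM in NCI-H1650, and 44.4 and 11.1 against 115 and 133 CPM in NCI-H196. A549 under IFN-β moved from 9.28 and 6.07 CPM to 140 and 203 CPM. The groups did not overlap within any line. ATF3 rose by 2.53 ± 0.17 (adjusted p = 2.34e-10) and 4.5 ± 0.30 (adjusted p = 1.97e-10). DDIT3, which encodes CHOP, rose by 1.81 ± 0.21 and 3.08 ± 0.32, and PPP1R15A, whose product directs a phosphatase to eIF2α, by 2.16 ± 0.21 and 2.94 ± 0.35. The remaining pair were ASNS, asparagine synthetase, at 0.76 ± 0.12 in the dependent lines and 0.66 ± 0.20 in A549 (adjusted p = 0.0523), and TRIB3, at 1.74 ± 0.18 and 0.71 ± 0.28 (adjusted p = 0.165). The difference of the effects was called for neither (adjusted p = 0.892 and 0.115). Without the HCC366 libraries all 7 were called in A549 as well.

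Of 27 other ATF4 targets, 17 rose in the dependent lines and 5 in A549, and none fell. BBC3, CHAC1, GDF15, SESN2 and TNFRSF10B were shared. CHAC1, a glutathione-degrading enzyme, rose by 1.67 ± 0.22 and 3.58 ± 0.36. The 12 called only in the dependent lines included the amino acid transporter genes SLC3A2, SLC7A5 and SLC6A9 and the serine and one-carbon pathway genes PHGDH, PSPH and SHMT2. Aminoacyl-tRNA synthetase genes, which ATF4 also induces, divided in the same way: 8 of 12 rose in the dependent lines (AARS1, CARS1, GARS1, IARS1, MARS1, SARS1, TARS1 and YARS1) and 0 in A549 (1 at an unadjusted p under 0.05, 0 by DESeq2), with medians of 0.45 and 0.18. The A549 values of CARS1 were 0.74 ± 0.23 (adjusted p = 0.0659), against 1.08 ± 0.15 in the dependent lines. By edgeR's test of the difference 0 members of either list had a larger effect in the dependent lines (8 and 2 at an unadjusted p under 0.05, 0 by DESeq2), so the division is not shown to be one of size. Without the HCC366 libraries 15 and 11 of the 27 other targets rose, 10 of them shared, and 4 and 2 of the synthetases rose. Among 11 kinases, phosphatase subunits and related genes of eIF2α, PPP1R15B was shared, at 0.55 and 0.91, and ATF4 itself was called only in the dependent lines. Of 16 endoplasmic reticulum chaperone genes 1 rose in the dependent lines (HSPA5) and 2 fell (HSP90B1 and SEL1L), and 1 fell in A549 (CRELD2). Over all genes 8.61% rose and 6.12% fell in the dependent lines, and 3.45% rose and 1.26% fell in A549.

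Targets of NF-kB rose in both effects as well. Of 24 tested, 21 rose in the dependent-line effect, 19 rose in A549, 17 were shared and none fell. Over all genes 8.61% rose in the dependent lines and 3.45% in A549, and 290 of 17669 were shared rises. CXCL8 (chr4:74606236-74609433, hg19), which encodes the neutrophil attractant interleukin-8, was at 34.9 and 34.5 CPM in the GFP libraries of HCC366 and at 327 and 179 CPM in its ADAR libraries. NCI-H1650 had 9.74 and 7.07 against 24.0 and 34.0 CPM, and NCI-H196 436 and 99.8 against 813 and 1230 CPM. A549 under IFN-β had 6.70 and 6.78 against 116 and 219.5 CPM. The ADAR libraries were the higher ones in each line, although the control level differed widely between lines. CXCL8 rose by 2.08 ± 0.22 (adjusted p = 3.44e-07) and 4.64 ± 0.39 (adjusted p = 1.11e-08). TNFAIP3, which encodes the NF-kB inhibitor A20, rose by 1.83 ± 0.15 and 3.02 ± 0.25, the cytokine gene IL6 by 1.28 ± 0.14 and 2.45 ± 0.23, and NFKBIA, which encodes IκBα, by 0.80 ± 0.12 and 1.18 ± 0.19. CXCL1 had the larger value in the dependent lines, 2.5 ± 0.20 against 1.54 ± 0.20, a difference that was not called (adjusted p = 0.0957). CD83, IL1B, LTB and TNF were called only in the dependent lines, BIRC3 and REL only in A549, and CCL2 in neither. Without the HCC366 libraries 19 and 20 rose, and without NCI-H196 GFP sg1 14 and 19.

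Interferon genes themselves were among the shared rises. IFNB1 (chr9:21077103-21077941, hg19), the gene of IFN-β, was at 0 and 0.565 CPM in the GFP libraries of HCC366 and at 2.54 and 3.68 CPM in its ADAR libraries. It was at 1.24 and 1.77 against 10.3 and 11.6 CPM in NCI-H1650, and at 0.206 and 0 against 1.74 and 2.55 CPM in NCI-H196. In A549 under IFN-β no read fell on it in either GFP library, and 17 and 62 reads fell on it in the ADAR libraries. The groups were apart in each line, but in HCC366 and NCI-H196 the values rest on 0 to 22 reads a library. IFNB1 rose by 3.06 ± 0.44 in the dependent lines (adjusted p = 4.28e-05) and was at least 23.7-fold higher in A549 against a floor of 3 reads (adjusted p = 2.62e-06). The IFN-β given to A549 is protein and adds no IFNB1 reads. IFNL1 (chr19:39787047-39789313, hg19), a type III interferon, rose by 2.39 ± 0.32 in the dependent lines (adjusted p = 1.64e-05) and was at least 33.6-fold higher in A549, from 0 and 0 reads to 24 and 88. IFNL2 and IFNL3 rose in A549 and not in the dependent-line mean, from 1 and 0 and from 0 and 0 reads to 28 and 86 and to 15 and 64. In NCI-H1650 alone they also passed the test (adjusted p = 0.043 and 0.0204), from 7 and 6 to 30 and 37 reads and from 10 and 9 to 45 and 50, while NCI-H196 had at most 1 read on either. These are near-identical neighbours whose reads may be split between them. The list's calls in the dependent lines, 2 of 4 tested, fell to 0 without NCI-H196 GFP sg1, with 4 calls in A549; by DESeq2 there was 1 call in each effect. Rises over all genes were 8.61% in the dependent lines and 3.45% in A549. CCL5, a lymphocyte-attracting chemokine, rose by 1.04 ± 0.14 and 1.80 ± 0.28. It was the only call in either effect among 4 such chemokine genes tested, whose A549 values ranged from −1.32 to 1.8.

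Interferon-stimulated genes, which answer to interferon through JAK kinases, were called in the dependent-line effect and not in the A549 effect. Of 43 tested, 13 rose and 1 fell in the dependent-line effect (8.61% and 6.12% of all genes), and 0 rose or fell in A549 by edgeR or by DESeq2; at an unadjusted p under 0.05, 19 rose and 2 fell in the dependent lines and 2 rose in A549. ISG15, a ubiquitin-like modifier, was at 82.5 and 118 CPM in the GFP libraries of HCC366 and at 177 and 667 CPM in its ADAR libraries. It was at 303 and 265 against 425 and 358 CPM in NCI-H1650 and at 108 and 178 against 213.7 and 196.4 CPM in NCI-H196. In A549 under IFN-β it was at 684 and 1049 CPM with GFP sgRNAs and at 738 and 670 CPM with ADAR sgRNAs. The groups overlapped in A549 and in no dependent line. ISG15 rose by 1.10 ± 0.21 in the dependent lines (adjusted p = 0.000893), and the A549 effect was −0.30 ± 0.33 (adjusted p = 0.675). MX1 rose by 1.15 ± 0.24, IFIH1 by 0.84 ± 0.17 and IFIT2 by 0.75 ± 0.13, while SAMD9L fell by 1.23 ± 0.25.

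The control level of these genes differed between the sides. Summed over the list, the GFP libraries of A549 under IFN-β were at 22350 and 22550 CPM and its ADAR libraries at 22300 and 22260 CPM. The GFP libraries of the dependent lines were at 3806 to 9141 CPM and their ADAR libraries at 6135 to 10760 CPM. The difference of the effects was called for 0 of the 43 genes by edgeR or DESeq2 (9 higher in the dependent lines and 1 higher in A549 at an unadjusted p under 0.05), and for 12 of them, all higher in the dependent lines, when the HCC366 libraries were left out; 22 then rose in the dependent lines and 2 rose and 1 fell in A549. Without NCI-H196 GFP sg1 the list had 1 rise and 1 fall in the dependent lines. By DESeq2 it had 7 rises and 1 fall. Antigen presentation genes had 7 rises of 16 in the dependent lines (TAP1 and IRF1 among them), and 1, IRF1, in A549. Rises over all genes were 8.61% in the dependent lines and 3.45% in A549. TAP1, a peptide transporter, rose by 0.71 ± 0.15, against −0.10 ± 0.22 in A549, and the difference was not called (adjusted p = 0.126). IRF1, an interferon- and NF-kB-induced transcription factor, rose by 0.90 ± 0.13 and 0.93 ± 0.19.

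Among genes of cell death, BBC3, PMAIP1 and MCL1 rose in both effects. BBC3 and PMAIP1 encode the BH3-only proteins PUMA and NOXA and rose by 1.78 ± 0.19 and 1.34 ± 0.25 and by 0.80 ± 0.12 and 1.39 ± 0.20. MCL1, which encodes an antiapoptotic protein, rose by 0.62 ± 0.12 and 0.77 ± 0.19. Of 15 BCL2 family genes 5 rose and 1 fell in the dependent lines and 4 rose in A549. HRK and BAX were called only in the dependent lines, as was the fall of BMF, and BCL2A1 only in A549. TNFRSF10B, which encodes the death receptor DR5, rose by 1.07 ± 0.14 and 0.90 ± 0.22 and was the only call among 15 death receptor and caspase genes. CHILL1, at chr8:22928890-22932001 (hg19) beside TNFRSF10B at chr8:22877646-22926544, rose by 2.76 ± 0.26 and 2.55 ± 0.32. Of 16 p53 targets 4 rose in the dependent lines (AEN, BAX, CDKN1A and XPC) and 0 in A549 (1 at an unadjusted p under 0.05, 0 by DESeq2). For the lists of this paragraph, the shares over all genes were 8.61% rises and 6.12% falls in the dependent lines and 3.45% rises in A549.

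Other shared rises were NR1D1, which encodes the circadian repressor REV-ERBα, at 2.21 ± 0.17 and 2.5 ± 0.25, and CYP1A1, a cytochrome P450 induced by the aryl hydrocarbon receptor, at 2.70 ± 0.23 and 4.76 ± 0.57. Of 13 snoRNA host transcripts, many of which are known to be degraded when they are translated, 8 rose in the dependent lines and 5 in A549, with EPB41L4A-AS1, SNHG12, SNHG8 and ZFAS1 shared; by DESeq2 8 and 1 rose and 0 were shared. EPB41L4A-AS1 rose by 1.12 and 1.53. Over all genes 8.61% rose in the dependent lines and 3.45% in A549. The 6 shared falls were small. NEURL1B, an E3 ubiquitin ligase gene, went from 11.5 and 11.04 to 5.66 and 5.39 CPM in A549 and fell by 0.55 ± 0.18 and 1.03 ± 0.24 (adjusted p = 0.0379 and 0.00967). B4GAT1 fell by 0.69 ± 0.17 and 1.04 ± 0.21 and HILPDA by 0.81 ± 0.25 and 1.04 ± 0.29. Without NCI-H196 GFP sg1 the dependent-line values of these genes were 2.31 and 1.76, of the opposite sign. The NCI-H196 control left in that run, GFP sg2, had 0 reads on either gene, so nothing is read from the change of sign.

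**Figure D3:**
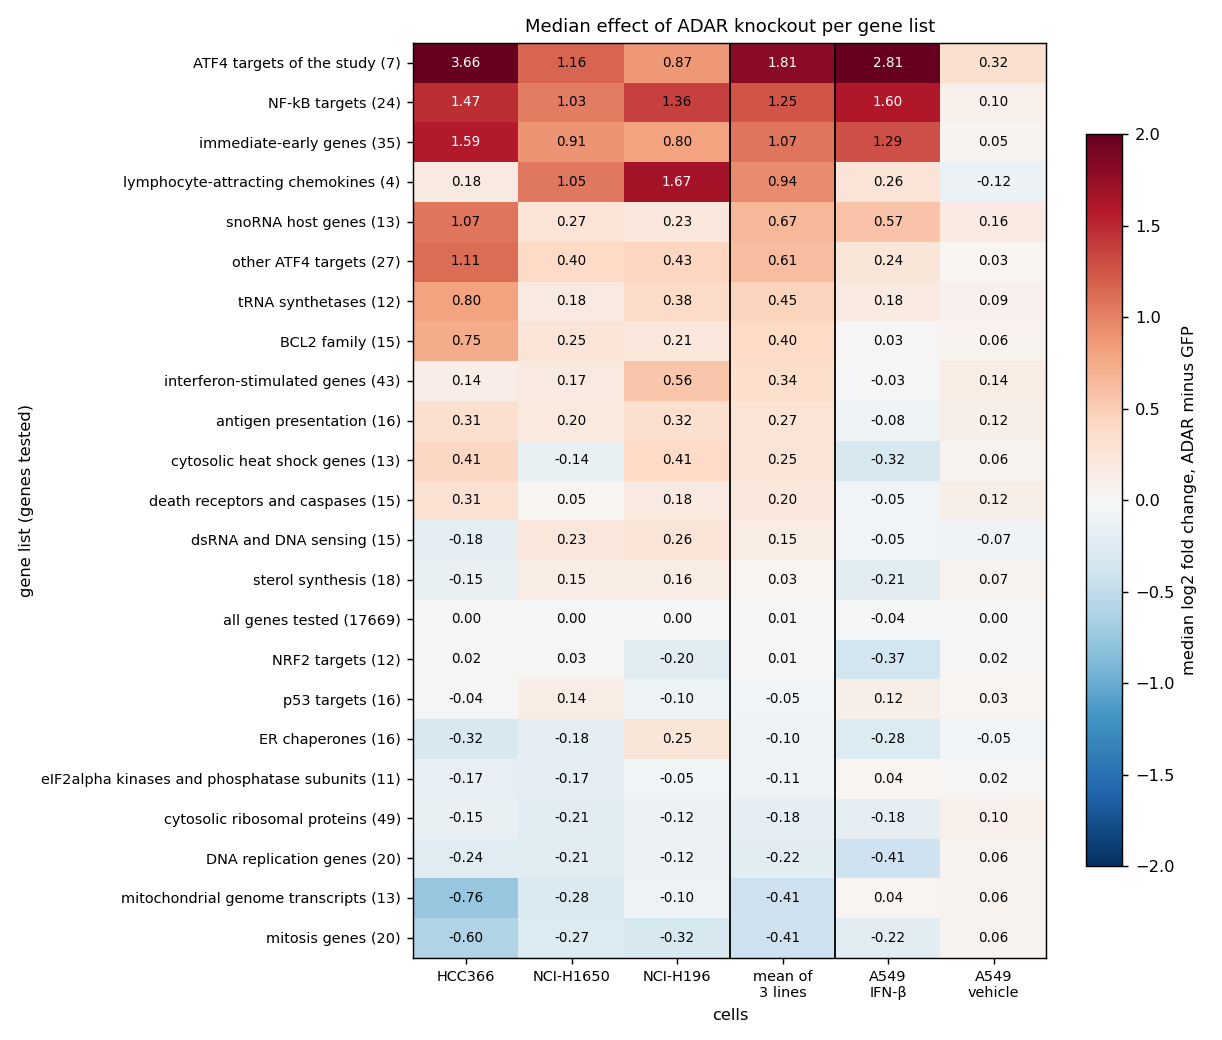
Median log2 fold change (ADAR minus GFP) of 22 gene lists and of all genes tested (the interferon genes are not drawn), in each dependent line, their mean, A549 under IFN-β and A549 under vehicle; red is above 0 and blue below, with full colour from 2 on. The ATF4 targets of the study, the immediate-early genes and the NF-kB targets have the highest medians of the lists drawn in A549 under IFN-β (2.81, 1.29 and 1.6) and lie at 0.32, 0.05 and 0.1 under vehicle, and the interferon-stimulated genes are above 0 in the dependent-line mean (0.345) and near 0 in A549 under IFN-β (−0.03).

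The size of the shared rises differed. Of the 290 shared rises 243 had the larger value in A549, with medians of 0.94 in the dependent-line effect and 1.25 in A549. The difference was called for 23, and each of these was larger in A549; over all genes 0.43% were called with the dependent lines higher and 0.441% with A549 higher. The 23 were IFNL1, EGR1, FOSB, ANKRD1, CXCL8, PTX3, ATF3, CHAC1, PRDM1, DUSP6, PPP1R3C, ETS1, ZNF670, HRH1, GORAB, ZNF697, HBEGF, STARD13, TNFAIP3, IL6, PPP4R1L, NOCT and KLF6. EGR1 had the clearest difference among the well-counted ones, 4.72 ± 0.48 larger in A549 (adjusted p = 3.93e-06). PTX3, a soluble pattern recognition protein, rose by 0.89 and 3.27, and DUSP6, a phosphatase of ERK, by 0.99 and 2.64. A mean over 3 lines and a single line are compared here, so a gene that rose in 1 dependent line alone has a smaller mean than that line. In HCC366 alone the median of the 290 was 1.35. The 290 were chosen for passing in both effects. Over all genes tested the median standard error was 0.245 for the A549 effect and 0.197 for the dependent-line effect. How far this choice sets the larger values in A549 was not tested.

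On the dependent side stood 81 genes, called in the dependent-line effect and in the difference of the effects, with no call of that sign in A549. Of these 59 rose and 22 fell. TUBB2B (chr6:3223558-3231964, hg19), a neuronal β-tubulin, had no read in either HCC366 GFP library and 7 and 4 reads in the ADAR libraries, at least 6.37-fold higher. It went from 1.04 and 1.10 to 4.18 and 3.74 CPM in NCI-H1650 and from 9.76 and 11.1 to 9.56 and 13.8 CPM in NCI-H196. In A549 under IFN-β it was at 22.7 and 29.3 against 16.7 and 15.04 CPM, an effect of −0.72 ± 0.22 (adjusted p = 0.0612). The ADAR libraries were above the controls in HCC366 and NCI-H1650, overlapped them in NCI-H196 and were below them in A549. The difference of the effects was 3.97 ± 0.58 (adjusted p = 0.000822), a fitted value that depends on the prior count, since the HCC366 controls are at 0.

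DHX58, which encodes the RNA sensor LGP2, was the only one of 15 genes of double-stranded RNA and DNA sensing on this side. It read 5.94 and 11.3 CPM with GFP sgRNAs and 22.9 and 46.6 CPM with ADAR sgRNAs in HCC366, 26.1 and 31.1 against 55.2 and 62.9 CPM in NCI-H1650, and 18.3 and 11.1 against 49.5 and 45.3 CPM in NCI-H196. In A549 under IFN-β it read 7.40 and 10.9 against 11.5 and 8.50 CPM. The ADAR libraries were apart from the controls in the 3 dependent lines and not in A549 under IFN-β. In A549 under vehicle the effect was 1.18 and did not pass the test. DHX58 rose by 1.44 ± 0.18 (adjusted p = 3.17e-06), the A549 effect was 0.08 ± 0.27 (adjusted p = 0.934), and the difference was 1.36 ± 0.32 (adjusted p = 0.0386). The call in the difference was lost in 15 of 29 alternatives, DESeq2 among them (adjusted p = 0.206), while the dependent-line rise was kept. ISG20, an interferon-induced RNA exonuclease, rose by 1.23 ± 0.18 against −0.31 ± 0.24 in A549, and SOCS1, a feedback inhibitor of JAK kinases, by 1.39 ± 0.24 against −0.64 ± 0.28. The differences were 1.54 ± 0.30 and 2.03 ± 0.37 (adjusted p = 0.0111 and 0.00721).

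Of 13 cytosolic heat shock genes, 3 differed with the higher effect in the dependent lines (HSPA1A, HSPA1B and HSPA6), where 0.43% of all genes did. HSPE1, a mitochondrial chaperonin gene of this list, fell in the dependent lines by 0.78 ± 0.18. HSPA6, an inducible HSP70, had 3 and 3 reads with GFP sgRNAs and 3 and 34 with ADAR sgRNAs in HCC366, 42 and 40 against 48 and 38 in NCI-H1650, 20 and 0 against 13 and 150 in NCI-H196, and 13 and 13 against 0 and 4 in A549. Scaled to CPM, the ADAR libraries were above the controls in HCC366 and NCI-H196 and below them in NCI-H1650 and A549. HSPA6 rose by 2.04 ± 0.33 in the dependent lines (adjusted p = 0.000155), and the A549 effect was −2.74 ± 0.82 (adjusted p = 0.0523), but no gene of the list rose without NCI-H196 GFP sg1. HSPA1A and HSPA1B, near-identical copies, rose by 0.77 ± 0.20 and 0.86 ± 0.20, with A549 values of −1.01 ± 0.31 (adjusted p = 0.0564) and −1.12 ± 0.31 (adjusted p = 0.0337). Their effects were 1.92 and 1.89 in HCC366, −0.10 and 0.02 in NCI-H1650, and 0.49 and 0.67 in NCI-H196. Of 12 NRF2 targets HMOX1 (haem oxygenase 1) and OSGIN1 rose in the dependent lines and were called in the difference, which DESeq2 called for 0 of the list, while NQO1 fell in the dependent lines and AKR1C1 and SRXN1 fell in A549. MEX3B, an RNA-binding ubiquitin ligase, rose by 1.55 ± 0.18 with a difference of 2.06 ± 0.30 (adjusted p = 0.000822), and SLC12A7, a potassium chloride cotransporter, rose by 1.69 ± 0.16 with a difference of 1.55 ± 0.28 (adjusted p = 0.00726). MEX3B, SLC12A7, TUBB2B and UAP1L1 were the 4 genes of this side that stayed in it under each of 13 other settings, and FBN2 was the only one that stayed in it with each single library left out in turn. Among the falls, CEP126, a centrosomal protein gene, had −1.08 ± 0.22 with a difference of −1.87 ± 0.35 (adjusted p = 0.00863). Without NCI-H196 GFP sg1 both were above 0 (1.70 and 0.91), but the NCI-H196 control left in that run had 0 reads on CEP126.

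HCC366 carried much of this side. It had the largest effect of the 3 lines for 73 of the 81 genes, and the median log2 fold change of the 59 rises was 2.27 in HCC366, 0.70 in NCI-H196, 0.51 in NCI-H1650 and −0.63 in A549. Both ADAR libraries lay above both GFP libraries in all 3 dependent lines for 18 of the 59 rises and for 5.32% of all genes; these libraries chose the 59, so nothing is read from this. The rises had a median transcript GC content of 57.7% and the falls one of 36.9%, where the median of all genes was 48.7%. With the trends of GC content and length removed 54 of the 70 genes of this side not also called in A549 stayed in it, and without the HCC366 libraries 22 did. The side had 1 gene without NCI-H196 GFP sg1, 3117 without HCC366 ADAR sg1 and 137 without the HCC366 libraries. How far sequence content and the HCC366 libraries set this class was not tested.

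**Figure D4:**
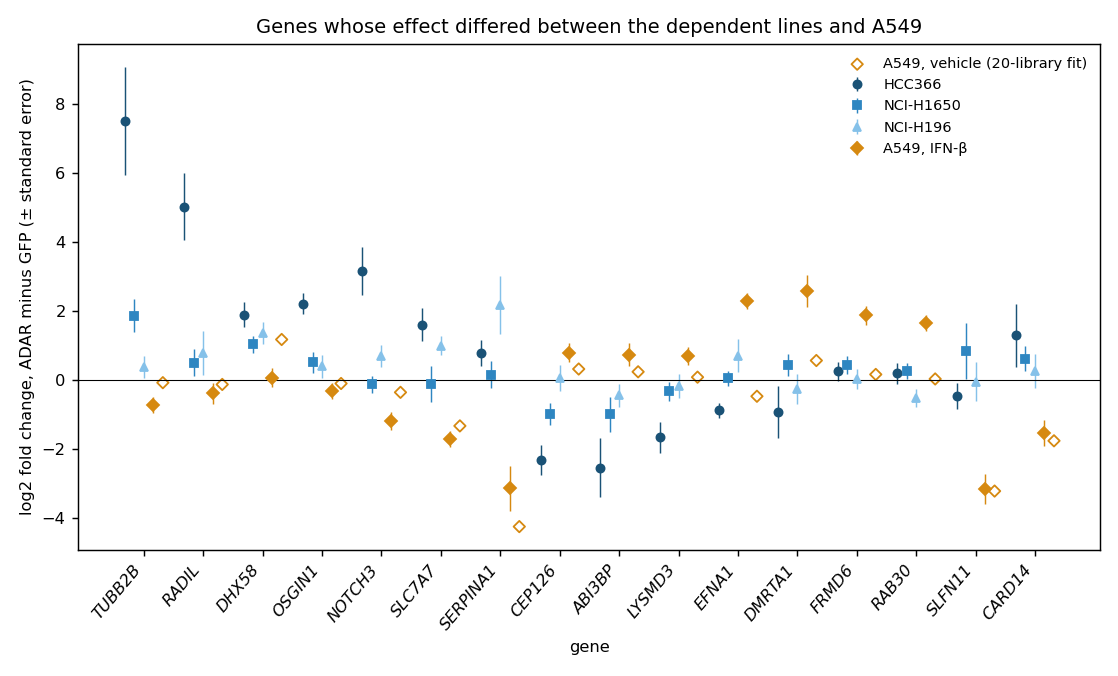
Log2 fold change (ADAR minus GFP, with standard error) of 16 genes on the dependent or the A549 side, for the 3 dependent lines in blue, A549 under IFN-β as filled orange diamonds and A549 under vehicle, from a fit of 20 libraries, as open diamonds. For EFNA1, DMRTA1, FRMD6 and RAB30 the filled diamond lies above the 3 lines and the open one near 0 or below, while for SLFN11, CARD14 and SERPINA1 the open diamond lies close to the filled one or below it.

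On the A549 side stood 58 genes, 34 that rose and 24 that fell. EFNA1 (chr1:155100352-155107375, hg19), a ligand of Eph receptors, was at 9.28 and 10.9 CPM with GFP sgRNAs in A549 under IFN-β and at 43.0 and 56.7 CPM with ADAR sgRNAs. It was at 201 and 204 against 130 and 92.6 CPM in HCC366, at 35.0 and 40.4 against 40.9 and 37.2 CPM in NCI-H1650, and at 1.85 and 11.1 against 2.61 and 3.36 CPM in NCI-H196. The groups were apart upward in A549, apart downward in HCC366 and overlapped in the other 2 lines. EFNA1 rose by 2.30 ± 0.22 in A549 (adjusted p = 8.68e-08), the dependent-line effect was −0.03 ± 0.20 (adjusted p = 0.996), and the difference was 2.33 ± 0.30 higher in A549 (adjusted p = 0.000187). It was the only gene of this side that stayed in it under each of 13 other settings, and it left it in 1 of 16 runs with a library left out.

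FRMD6, which encodes an upstream component of the Hippo pathway, went from 75.5 and 65.5 to 206 and 312 CPM in A549 and rose by 1.88 ± 0.27, against 0.25 ± 0.16 in the dependent lines (difference adjusted p = 0.00797). CCN2, a matricellular protein and target of YAP, went from 33.0 and 30.1 to 77.7 and 93.0 CPM in A549 and rose by 1.44 ± 0.22, against 0.06 ± 0.13 (difference adjusted p = 0.00806). RAB30, a Golgi small GTPase gene, rose by 1.65 with a difference of 1.66 (adjusted p = 0.00324). The transcription factor genes MITF, CREB1 and HIVEP1 rose by 1.5, 0.81 and 1.26 (difference adjusted p = 0.0287, 0.0432 and 0.0219). They stayed on this side under 9, 5 and 10 of 13 other settings. CREB1 left it with the GC content and length offsets, and HIVEP1 left it without the HCC366 libraries. The HIVEP1 effect of HCC366 was −0.50, while NCI-H1650 had 0.42 and NCI-H196 had 0.54. The median of the 34 rises was 1.16 in A549 under IFN-β and 0.04 under vehicle, and 0 of the 34 passed edgeR's test under vehicle, with 1 rises and 0 falls at an unadjusted p under 0.05.

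The falls of the A549 side were partly seen without interferon. Of the 24, 19 had the same sign under vehicle, and 5 were below −1 on the log2 scale there: CARD14, SERPINA1, SLC7A7, SLFN11 and SPTBN5. SLFN11 (chr17:33677324-33700720, hg19), which sensitises cells to DNA damage, read 8.69 and 20.6 CPM with GFP sgRNAs and 3.47 and 0.571 CPM with ADAR sgRNAs under IFN-β. It fell by 3.15 ± 0.43 there (adjusted p = 2.21e-05) and its effect under vehicle was −3.21 (adjusted p = 0.0243). The dependent-line effect was 0.12 ± 0.35 (adjusted p = 0.909). The A549 side had a median GC content of 40.2% for its rises and 60.2% for its falls, the reverse of the dependent side. It had 1 gene without NCI-H196 GFP sg1, 1475 without HCC366 ADAR sg1 and 483 without the HCC366 libraries, and 41 of its 47 genes not also called in the dependent lines stayed in it in the last case.

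Called in both effects with opposite signs were 11 genes, of which 9 rose in the dependent lines: they stand on both sides above. SERPINA1 (chr14:94843084-94857030, hg19), which encodes α1-antitrypsin, was at 14.1 and 26.3 against 32.2 and 41.7 CPM in HCC366 and at 1.41 and 3.16 against 0.129 and 0.317 CPM in A549 under IFN-β. It rose by 1.05 ± 0.33 in the dependent lines and fell by 3.14 ± 0.65 in A549, where the vehicle effect was −4.24 (adjusted p = 0.228). NOTCH3, a receptor, was at 0.743 and 1.41 against 5.93 and 15.3 CPM in HCC366 and at 41.6 and 65.6 against 27.9 and 19.98 CPM in A549. It rose by 1.26 ± 0.27 and fell by 1.18 ± 0.26. SLC7A7, a cationic amino acid transporter gene, rose by 0.83 ± 0.26 and fell by 1.71 ± 0.24, with −1.32 under vehicle (adjusted p = 0.0827). NEXN, an actin-binding protein gene, fell by 1.02 ± 0.34 in the dependent lines and rose by 1.11 ± 0.29 in A549. In HCC366, NCI-H1650 and NCI-H196 the effects were 1.61, −0.12 and 1.01 for SLC7A7 and −2.94, −0.17 and 0.04 for NEXN. Without the HCC366 libraries 1 of the 11 was still called in opposite directions.

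Cell cycle genes fell by the test in the dependent lines alone, where 6.12% of all genes fell, against 1.26% in A549. Of 20 mitotic genes 9 fell there (CCNA2, CDK1, CENPE, CENPF, KIF11, KIF20A, MKI67, NUSAP1 and TOP2A) and 0 in A549 (3 at an unadjusted p under 0.05, 0 by DESeq2), with medians of −0.415 and −0.22. MKI67, the gene of the proliferation marker Ki-67, was at 836 and 631 against 370 and 237 CPM in HCC366, at 567 and 567 against 410 and 393 CPM in NCI-H1650, and at 403 and 288 against 342 and 297 CPM in NCI-H196. In A549 it was at 1011 and 947 against 885 and 811 CPM. The ADAR libraries were below the controls in HCC366, NCI-H1650 and A549. MKI67 fell by 0.66 ± 0.13 (adjusted p = 0.00102) in the dependent-line effect, and the A549 value was −0.21 ± 0.21 (adjusted p = 0.646). The difference was called for 0 of the 20 by edgeR or DESeq2, and for 4, all lower in the dependent lines, at an unadjusted p under 0.05. Of 20 DNA replication genes 5 fell in the dependent lines (CCNE2, CLSPN, PCNA, POLE2 and RRM2) and 0 in A549 (6 at an unadjusted p under 0.05, 0 by DESeq2), although the A549 median was the lower one, −0.41 against −0.22. Without the HCC366 libraries 11 mitotic genes fell in the dependent lines and 4 in A549, and 3 and 11 DNA replication genes fell. In bulk RNA fewer cells in cycle and less RNA per cell cannot be told apart. The remaining lists had few calls. In the dependent lines 4 of 49 ribosomal protein genes and 2 of 13 mitochondrially encoded transcripts fell. In A549 0 of either list were called by edgeR, DESeq2 or an unadjusted p under 0.05. Of 18 sterol genes 1 rose and 1 fell in the dependent lines. There 8.61% of all genes rose and 6.12% fell, and nothing is read from counts this small.

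The 3 dependent lines differed among themselves for 237 genes (1.34%), and HCC366 was the farthest line for 211 of these. Called in the single lines were 67 genes in NCI-H196 (0.379%), 99 in NCI-H1650 (0.56%) and 3285 in HCC366 (18.6%). Over 12340 genes with at least 1 CPM in each line, the dependent-line effect and the A549 effect correlated with a Pearson r of 0.276 and a Spearman rho of 0.121, across genes, which are not independent. The r with the A549 effect was 0.377 for NCI-H1650, 0.273 for NCI-H196 and 0.14 for HCC366, and between pairs of dependent lines it was 0.395 to 0.462. With A549 under vehicle the dependent-line effect had an r of 0.0178. NCI-H1650 thus had the highest correlation with the A549 effect, and HCC366 the lowest correlation and the most called genes. The precision of the lines' effects had the same order. Over all genes tested, the median standard error was largest for HCC366 (0.358), followed by NCI-H196 (0.319), and smallest for NCI-H1650 (0.27). How far this spread, or the HCC366 ADAR sg2 library, sets the order of the correlations was not tested, so no likeness between lines is read from it.

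Most one-sided calls were not shown to be one-sided. Of the genes called in the dependent lines and not in A549, 2225 had no call in the difference, and of those called in A549 and not in the dependent lines 478 had none. The median standard error was 0.197 for the dependent-line effect, 0.245 for the A549 effect and 0.324 for the difference. At an unadjusted p under 0.05 there were 5054, 3249 and 3247 genes. The shared class was the firmer one: 53 of its 296 genes, among them ATF3, CHAC1, CXCL1, CXCL8, DDIT3, EGR1, FOS, FOSB, GADD45A, GADD45B, IL6, KLF4, NR1D1, PMAIP1, PPP1R15A, SESN2, SOCS3, TNFAIP3 and TRAF1, stayed in it under each of 13 other settings and with each library left out. No gene of the other classes did. A gene of one side also needs a call in the difference, the estimate with the largest median standard error. Firmer thus means only that more of the class was kept, under rules that differ.

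**Figure D5:**
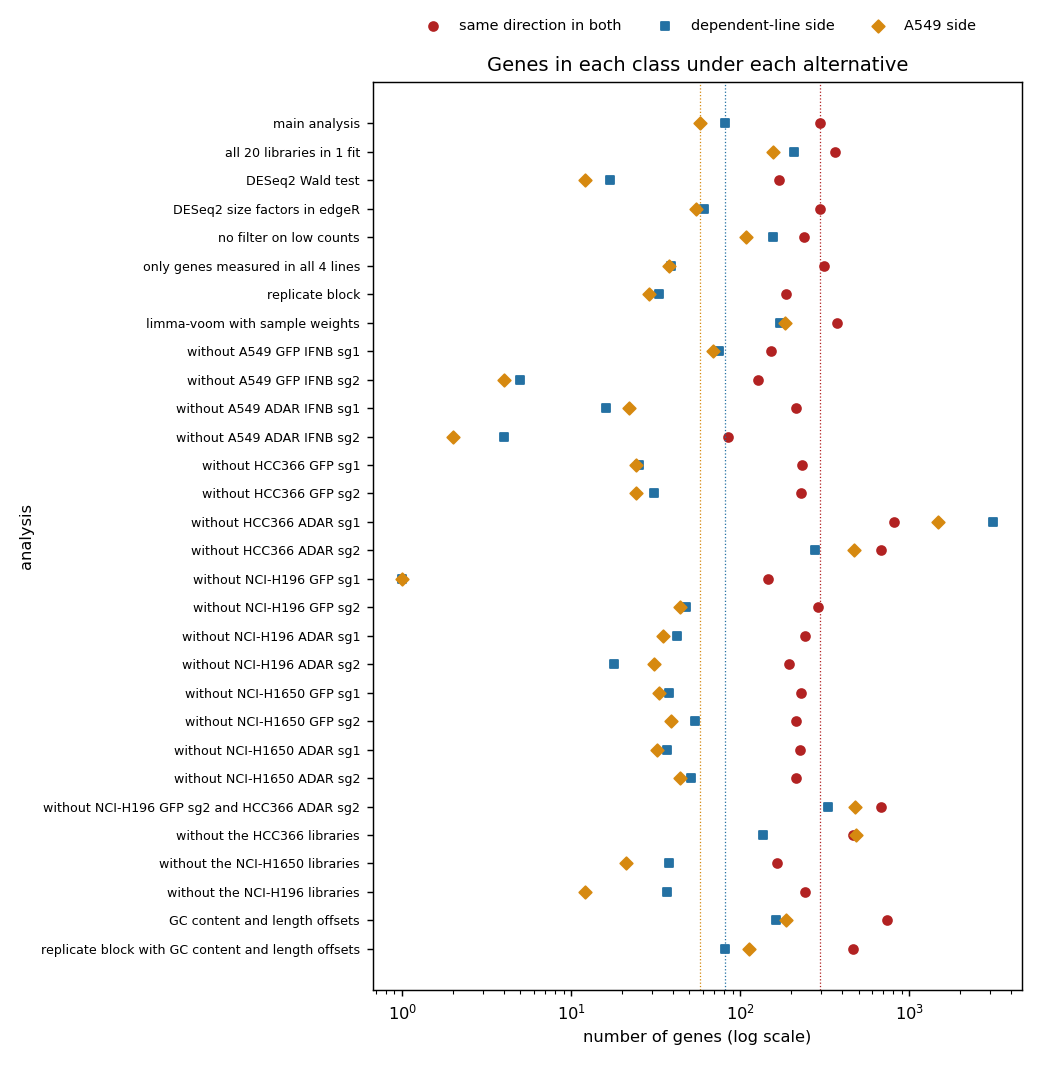
Number of genes, on a log axis, called the same way in both effects (red), on the dependent side (blue) and on the A549 side (orange) in the analysis reported (top) and in the alternatives named on the y axis, with dotted lines at the reported counts of 296, 81 and 58. The shared count ranges from 84 to 813 and the dependent-side count from 1 to 3117 over the runs with a library left out.

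Promoter motifs were counted on both strands in the 300-base windows that RefSeq gave for 12029 of the 17669 genes tested. Of 233 shared rises with a window 3.43% held the CARE, 6.87% the CRE (TGACGTCA), 9.44% AP-1, 35.6% NF-kB and 2.15% the CArG box, where all windows held 1.9%, 3.14%, 4.89%, 30.7% and 1.14%. The interferon-stimulated response element (GAAANNGAAA) was in 3% of the shared rises and in 2.83% of all windows. By list, 14 of 21 NF-kB targets (66.7%) held an NF-kB match, 21 of 35 interferon-stimulated genes (60.0%) the response element, and 4 of 21 other ATF4 targets (19%) the CARE. Of 24 immediate-early genes 2 (8.33%) held the CArG box, 8 (33.3%) NF-kB and 0 AP-1, so the CArG boxes shown for EGR1 are not typical of that list. On the dependent side 4 of 43 rises (9.3%) held the response element. The FOS window held none of the motifs searched, which says only that these letters are not in it.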

How the data were processed

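Ribosomal RNA was depleted, stranded libraries were sequenced as 150-bp paired ends, and the authors used STAR for alignment (hg19) and HTSeq for counting (versions and annotation release are not given in the sources used here). The deposited values are raw read counts for 58233 Ensembl identifiers, of which 55727 received a symbol from a reference table. HTSeq's summary lines were left out. Counts of 16 libraries were fitted together in 8 condition groups with edgeR 4.0.16 (R 4.3.3): TMM scaling, filterByExpr by condition, quasi-likelihood F-test, Benjamini-Hochberg adjustment over all genes tested and a threshold of 0.05. The contrasts were the mean of the 3 dependent lines, A549 under IFN-β, their difference and the differences among lines. Vehicle values come from a fit of all 20 libraries. Fold changes used a prior count of 0.125, and errors are standard errors. The script was tested on simulated counts.

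A shared gene was called in both effects with the same sign. A gene of one side was called there and in the difference, and not with that sign in the other. The genes named are ADAR, EIF2AK2, the 7 ATF4 targets of the study, the interferon genes, the genes with the largest effects in each class and list among those with at least 1 CPM in each of the 4 lines, and members of lists; other genes were chosen after their values were seen. Members and lists were chosen with earlier results of these data known. Positions are on hg19 from a GENCODE annotation lifted to that build, promoters on GRCh38.p14. Alternatives were DESeq2 1.42.0, limma 3.58.1 (voom), other scaling and filters, a replicate block, GC content and length offsets, and leaving out libraries or lines. PECAM1 and SOD2 were not matched in the files.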

Additional observations from a re-analysis of the deposited data

Results flagged for a closer look

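These results differed between the dependent lines and A549 under IFN-β, or among the dependent lines, by edgeR's test of the difference itself. The difference of the 2 effects was called for 154 genes, and the 3 dependent lines differed for 237. Each value below is the dependent-line effect minus the A549 effect on the log2 scale, so that values above 0 mean a higher effect in the dependent lines.

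Among genes that rose in both, the differences were −4.72 for EGR1, −5.32 for IFNL1 (a fitted value that depends on the prior count, since the A549 controls had no read), −2.56 for CXCL8, −1.97 for ATF3 and −1.92 for CHAC1. On the dependent side they were 4.77 for HSPA6, 3.97 for TUBB2B, which also depends on the prior count, 2.49 for RADIL, 1.36 for DHX58 and 1.36 for OSGIN1. Genes that fell there had −2.06 (ABI3BP), −1.87 (CEP126), −1.66 (KIAA1586) and −1.42 (LYSMD3).

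On the A549 side the rises had −2.83 (DMRTA1), −2.47 (STARD13-AS), −2.33 (EFNA1), −2.33 (SERTAD4), −1.74 (ZNF484), −1.66 (RAB30) and −1.63 (FRMD6). The falls had 3.27 (SLFN11), 2.27 (CARD14) and 1.12 (CRELD2). Genes called in opposite directions had 4.19 (SERPINA1), 2.54 (SLC7A7), 2.44 (NOTCH3), 2.07 (RNF43) and −2.14 (NEXN).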

How the results depend on the processing

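Each condition rests on 2 libraries, and the shallowest, NCI-H196 GFP sg2, has 62679 reads on genes; without it there were 2433, 723 and 105 genes in the first 3 counts below, so leaving it out raised none of these. In this order, the counts are given for the dependent-line effect (2602), the A549 effect (832), their difference (154), the difference among the dependent lines (237), the shared genes (296), the dependent side (81) and the A549 side (58). With 1 library left out they ranged from 399 to 6189, from 111 to 3218, from 3 to 4691, from 6 to 4247, from 84 to 813, from 1 to 3117 and from 1 to 1475. The highest values came without HCC366 ADAR sg1, or for the A549 effect without HCC366 ADAR sg2, and the lowest without NCI-H196 GFP sg1, without A549 ADAR sg2 under IFN-β (A549 effect and shared genes) or without HCC366 GFP sg2 (lines differ). Each of the 16 libraries moved at least 1 of the 7 counts by over 1.5 times.

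Other settings gave these counts where they moved by over 1.5 times; unless said otherwise the cause was not tested. A fit of 20 libraries gave 404 for the difference, 450 among lines, 209 on the dependent side and 155 on the A549 side, and no filter on low counts gave 335, 392, 157 and 108. Only genes measured in all 4 lines, which are fewer genes, gave 89, 139, 39 and 38. DESeq2 gave 1479, 261, 40, 170 shared, 17 and 12. Voom with sample weights gave 1642, 1835, 406, 69 among lines, 172 and 183. Without NCI-H196 GFP sg2 and HCC366 ADAR sg2 there were 2897 in A549, 919, 385 among lines, 677 shared, 330 and 475. Without HCC366 there were 1293, 2750, 756, 461 shared, 137 and 483, without NCI-H1650 1470, 433, 61, 164 shared, 38 and 21, and without NCI-H196 551 in A549, 48, 37 and 12. GC content and length offsets, chosen after seeing the data, gave 1957 in A549, 392, 674 among lines, 738 shared, 162 and 187. Fits of the 12 and the 4 libraries apart, also added later, gave 2055 in A549 and 453 shared. DESeq2 size factors in edgeR moved no count by over 1.5 times.

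The sgRNA numbers do not pair the samples: same-numbered libraries' deviations correlated at −0.0649 to 0.0154 in the 4 lines. A replicate block by number gave 1214, 515, 71, 157, 187, 33 and 29, and with GC content and length offsets 1608, 1554, 450 among lines, 462 shared and 112 on the A549 side.

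Over the genes named, 3597 values kept direction and call, 588 lost the call, 14 gained one and 12 changed sign. With 1 library left out, the dependent-line effect ranged from −0.78 to 2.31 for B4GAT1, from −0.73 to 2.85 for C1QL1, from −1.31 to 1.70 for CEP126 (its difference from −2.1 to 0.91), from −0.97 to 1.76 for HILPDA and from −0.59 to 0.029 for RPS25, each time highest without NCI-H196 GFP sg1. That run leaves the shallowest library as the only NCI-H196 control. RNF43 ranged from −0.79 without NCI-H196 ADAR sg2 to 2.97, the ADAR difference from −0.31 to 0.055 without A549 ADAR sg2 under IFN-β, and the A549 effect of EIF2AK2 from −0.22 to 0.0041 without A549 GFP sg1 under IFN-β. KIAA1586 became 0.063 without HCC366, and the EIF2AK2 difference 0.15 with the offsets and 0.18 with block and offsets.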
